A study of Homo sapiens with 3 samples.

Results

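The genes described here encode the RBR (RING-in-between-RING-RING) ubiquitin ligases related to RBCK1, and they were chosen by name. They are *ARIH1*, *ARIH2*, *CUL9*, *RNF14*, *RNF19A*, *RNF19B*, *RNF144A*, *RNF144B*, *RNF216* and *RNF217*, 10 of the 44591 genes in the deposited table. All 10 have an entry of their own, and in 9 of them the level averaged over the 3 libraries was 1 RPKM or more. RPKM are reads per kilobase of gene length, scaled to the size of the library. RNA was taken from Caki-1, an established human cell line of clear cell renal cell carcinoma, 48 h after lipid transfection with siRNA. The study's general transfection methods give 10 nmol/L of siRNA, and its RNA-seq methods name no dose. The si-Control library received a non-targeting siRNA, and the si-RBCK1 #1 and si-RBCK1 #2 libraries (labelled si-HOIL-1#1 and si-HOIL-1#2) each received a different siRNA against *RBCK1*, whose product is also called HOIL-1. There was 1 library per condition, so the differences given here have no replicate check and no p-value. Intervals are exact 95% intervals on reads, and they cover counting error only, not the spread between cultures.

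RBR ligases carry ubiquitin on a cysteine of their own before passing it to a substrate, which joins features of RING and HECT ligases. They take ubiquitin from an E2 enzyme through the first RING domain, and the catalytic cysteine lies in the last one. RBCK1 belongs to this family and works with RNF31 in the complex that makes linear ubiquitin chains. ARIH1 and ARIH2 act together with cullin-RING ligases that carry the ubiquitin-like protein NEDD8, and CUL9 joins a cullin and an RBR module in a single protein.

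To see whether the siRNAs themselves resemble the relatives of *RBCK1*, the sense strands given by the study were compared with the longest protein-coding transcript of each gene in GENCODE v29 (GRCh38). They are shown because each library is defined by 1 of them, and the capitals mark the bases that pair with positions 2 to 8 of the guide strand, the seed.
si-RBCK1 #1: ggtgcaccttcATCAACAa
si-RBCK1 #2: ggattaccagcGATTTCTa

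Both sequences matched the coding part of *RBCK1* without a mismatch, the first in exon 6 (chr20:419577-419595, plus strand, GRCh38) and the second in exon 9 (chr20:427327-427345). In the 10 relatives the closest window of 19 bases had 6 or 7 mismatches with either siRNA, and the longest stretch shared with any of them was 7 to 9 bases. The windows of *ARIH1* and *RNF19B* are shown because these genes differed most from si-Control, and capitals mark the bases that do not match the siRNA.
*ARIH1*, closest to si-RBCK1 #1: ggGgcaGGAtcatcaaTaC
*ARIH1*, closest to si-RBCK1 #2: ggaGGaAcagTgCtttTta
*RNF19B*, closest to si-RBCK1 #1: ggAAAacctCcaAACacaa
*RNF19B*, closest to si-RBCK1 #2: gCatCCccagTTattGctG

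Those of *ARIH1* had 6 mismatches each and lie in its 3′ UTR (chr15:72589600-72589618 and the first of 3 equal windows at chr15:72585653-72585671, plus strand). Those of *RNF19B* had 7 mismatches each and lie in its coding sequence (chr1:32945588-32945606 and chr1:32945526-32945544, minus strand). The seed site ATCAACA of si-RBCK1 #1 was present on the sense strand of 3 of the 10 transcripts (*RNF144A*, *RNF144B* and *RNF217*), and 22.3% of 19669 protein-coding transcripts hold it. The seed site GATTTCT of si-RBCK1 #2 was present in 5 of the 10 (*ARIH1*, *ARIH2*, *RNF14*, *RNF19B* and *RNF144A*), beside 25.9% of the same 19669 transcripts, 1 per gene. Neither share was matched for transcript length. Of these 5 genes, 4 held a GATTTCT site in the 3′ UTR, and that of *RNF144A* lay in the 5′ UTR. *ARIH1* held 3 such sites in a transcript of 21681 nt and none for si-RBCK1 #1, while *RNF19B* held 2 for si-RBCK1 #2 and none for si-RBCK1 #1. The length behind the RPKM values of *ARIH1* was 5251 nt, shorter than the transcript searched, so its windows and sites may lie outside the sequence counted. A match of these letters is a description and not evidence that a guide acts there.

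*RBCK1* itself gave 33.3 RPKM (5294 reads) in the control library, 9.97 RPKM (1735 reads) after si-RBCK1 #1 and 12.3 RPKM (1917 reads) after si-RBCK1 #2. The depleted libraries were thus at 29.9% and 36.8% of the control level. In bulk RNA, fewer cells of a kind and less RNA per cell cannot be told apart, and this holds for all values here. Libraries were scaled by 36926834, 40442939 and 36344428 reads in the same order. Of the genes listed as markers of renal cells, *PAX8* (124 RPKM with si-Control), *KRT8*, *KRT18*, *CDH2* and *VIM* were present, and *PAX2* had at most 0.0642 RPKM. *KRT8* (65.6, 172 and 238 RPKM) and *VIM* (664, 1512 and 1392 RPKM) were more than 1.5-fold higher with both siRNAs. By the interval on reads *KRT18* (95.3, 142 and 172 RPKM) was higher with both as well. *PAX8* (124, 82.5 and 107 RPKM) and *CDH2* (24.5, 17.7 and 15.9 RPKM) were lower with both, so the markers did not move in 1 direction. Markers of other cells were at or near 0, since 6 genes of blood, endothelial, liver, smooth muscle and stromal cells summed to values between 0.361 and 0.495 RPKM in each library.

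Of the 10 relatives of *RBCK1*, 7 were at 9.84 RPKM or above in every library of these Caki-1 cells. That level is the lowest value of *RNF19A*, found with si-RBCK1 #1. In that library 48.7% of the protein-coding genes tested had a lower level. Summed over the members, the control library held 128 RPKM and the depleted libraries 124 and 119.96 RPKM. Of the 9 expressed members, 0 differed 2-fold from si-Control with si-RBCK1 #1 (6.18% of all genes did so), 0 with si-RBCK1 #2 (4.76%) and 0 with both in 1 direction (2.87%). *ARIH1* was lower and *RNF19B* higher with both siRNAs, and these genes exchanged the first and the third rank in level between si-Control and the depleted libraries.

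*ARIH1*, on chromosome 15 from 72766667 to 72878896 (plus strand, hg19 as for all gene positions in the table), encodes the ligase that places the first ubiquitin on substrates of neddylated cullin-RING ligases. Its transcripts stood at 27.2 RPKM in the control library (5282 reads) and at 18.2 RPKM (3855 reads) and 16.8 RPKM (3210 reads) after the first and the second si-RBCK1. Both depleted libraries were thus well below the control library, at 66.6% and 61.7% of it. The log2 ratios of RPKM values with 1 RPKM added, a scale that gives too small a change for low genes, were -0.56 and -0.66. On reads alone they were -0.59 (interval -0.65 to -0.53) and -0.70 (interval -0.76 to -0.63). Among all 12403 genes that averaged 1 RPKM or more, 670 (5.40%) had ratios at or below those of *ARIH1* with both siRNAs.

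*ARIH2*, on chromosome 3 from 48956253 to 49022974 (plus strand), encodes the partner ligase of cullin 5 complexes. The si-Control library held 12.4 RPKM of it from 1923 reads, against 15.2 RPKM from 2584 reads after si-RBCK1 #1 and 13.6 RPKM from 2085 reads after si-RBCK1 #2. Here the control library was the lowest of the 3, whereas it was the highest for *ARIH1*. The log2 ratios were 0.27 and 0.13, with intervals on reads of 0.21 to 0.38 and 0.05 to 0.23. The level of *ARIH1* was 2.20 times that of *ARIH2* with si-Control (interval 2.09 to 2.32), 1.20 times with si-RBCK1 #1 (1.14 to 1.26) and 1.24 times with si-RBCK1 #2 (1.17 to 1.31), all per length. The intervals of the 2 depleted libraries overlapped each other and not that of the control library.

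*CUL9*, also named PARC, lies on chromosome 6 from 43149922 to 43192325 (plus strand). Its transcripts stood at 4.77 RPKM in the control library (1369 reads) and at 4.22 RPKM (1327 reads) and 5.45 RPKM (1539 reads) after the first and the second si-RBCK1. The control library lay between the depleted ones, with log2 ratios of -0.14 and 0.16. The siRNAs differed from each other in this gene by a log2 ratio of 0.37 on reads (si-RBCK1 #2 over #1, interval 0.26 to 0.47).

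**Figure D1:**
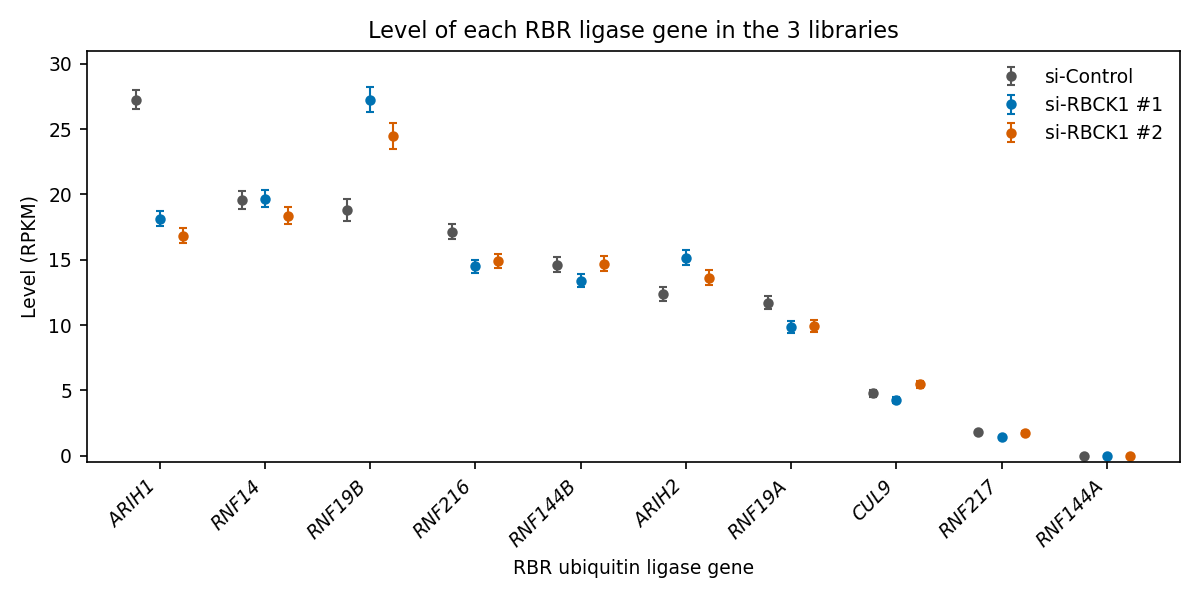
Level in RPKM (vertical axis) of the 10 RBR ligase genes (horizontal axis, ordered by si-Control) in the si-Control, si-RBCK1 #1 and si-RBCK1 #2 libraries, with exact 95% Poisson intervals on reads as bars (counting error only). *ARIH1* stood at 27.2 RPKM in the control library and at 18.2 and 16.8 RPKM in the depleted ones, *RNF19B* went from 18.8 to 27.2 and 24.4 RPKM, and *RNF144A* was at or near 0.

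The RNF19 ligases have membrane-spanning segments beside the RBR module, and RNF19A is also known as dorfin. *RNF19B*, on chromosome 1 from 33402047 to 33430414 (minus strand), gave 18.8 RPKM (1901 reads) in the control library, 27.2 RPKM (3015 reads) after si-RBCK1 #1 and 24.4 RPKM (2432 reads) after si-RBCK1 #2. It was the highest member in both depleted libraries, at 145% and 129.98% of control. The log2 ratios were 0.51 and 0.36, with intervals on reads of 0.45 to 0.62 and 0.29 to 0.47. Of all genes tested, 1529 (12.3%) had ratios at or above those of *RNF19B* with both siRNAs. Its paralog *RNF19A*, on chromosome 8 from 101269287 to 101348446 (minus strand), gave 11.7, 9.84 and 9.94 RPKM from 2084, 1919 and 1743 reads in the same order of libraries. *RNF19A* was thus lower in both depleted libraries, which lay close together, with log2 ratios of -0.23 and -0.21. The level of *RNF19B* was 1.61 times that of *RNF19A* with si-Control (interval 1.51 to 1.71), 2.77 times with si-RBCK1 #1 (2.61 to 2.93) and 2.46 times with si-RBCK1 #2 (2.31 to 2.62). The sum of the pair was 30.5 RPKM, 37.1 RPKM and 34.4 RPKM.

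**Figure D2:**
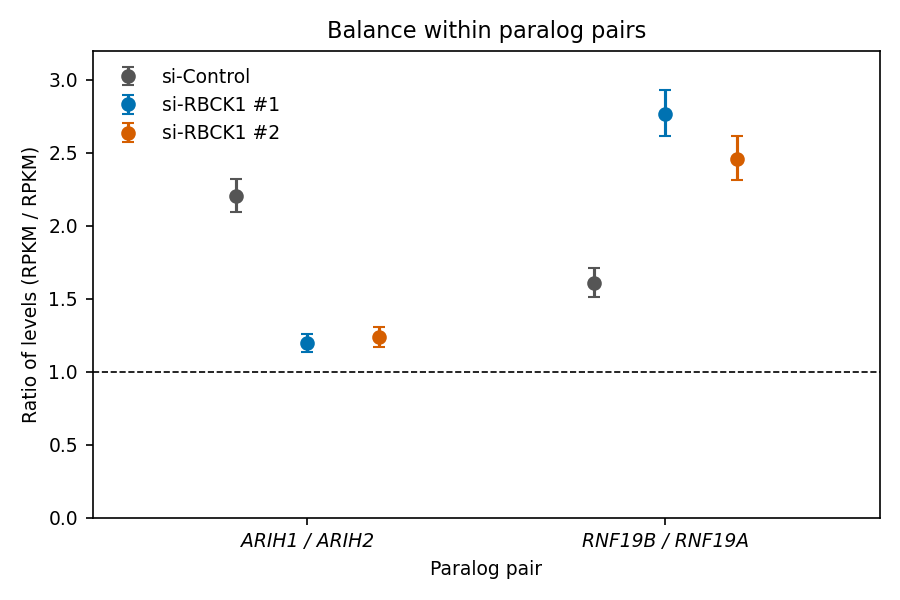
Ratio of the levels of 2 paralogs (RPKM over RPKM, vertical axis) for *ARIH1* over *ARIH2* and *RNF19B* over *RNF19A* in each library, with exact 95% intervals on reads as bars and a dashed line at equal levels. The first ratio was 2.20 with si-Control and 1.20 and 1.24 after depletion, while the second was 1.61 with si-Control and 2.77 and 2.46 after depletion.

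RNF144A and RNF144B are small membrane-anchored ligases. *RNF144B*, on chromosome 6 from 18387581 to 18469105 (plus strand), gave 14.6 RPKM (2719 reads) in the control library, 13.4 RPKM (2726 reads) after si-RBCK1 #1 and 14.7 RPKM (2688 reads) after si-RBCK1 #2. The log2 ratios were -0.12 and 0.0060, and the interval on reads of the second, -0.07 to 0.08, held 0. *RNF144A*, on chromosome 2 from 7057523 to 7184310 (plus strand), had 0 reads with si-Control, 1 read with si-RBCK1 #1 and 0 reads with si-RBCK1 #2. A count of 0 allows up to 3 reads, that is 0.0142 RPKM with si-Control and 0.0144 RPKM with si-RBCK1 #2. Set against this limit of 3 reads, the measured level of *RNF144B* in the control library was at least 1033-fold higher than that of *RNF144A*, and no change of *RNF144A* could be detected at this depth.

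*RNF14*, which encodes a ligase known as a coactivator of the androgen receptor, lies on chromosome 5 from 141346402 to 141369856 (plus strand). The si-Control library held 19.5 RPKM of it from 3265 reads, against 19.7 RPKM from 3597 reads after si-RBCK1 #1 and 18.4 RPKM from 3018 reads after si-RBCK1 #2. *RNF14* held the second rank in all 3 libraries, with log2 ratios of 0.0081 and -0.09. The interval on reads of the first, -0.06 to 0.08, held 0, and that of the second was -0.16 to -0.02.

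*RNF216*, whose product is also called TRIAD3, lies on chromosome 7 from 5659672 to 5821361 (minus strand). Its transcripts stood at 17.1 RPKM in the control library (3703 reads) and at 14.5 RPKM (3428 reads) and 14.9 RPKM (3168 reads) after the first and the second si-RBCK1. Both depleted libraries were lower, at 84.5% and 86.9% of control, and they differed from each other by less than counting error (log2 ratio 0.04, interval -0.03 to 0.11). The log2 ratios were -0.23 and -0.19. The pseudogene *RNF216P1* on the same chromosome was listed at 12.3 RPKM, 12.96 RPKM and 12.2 RPKM. How reads that match both entries were counted or dropped is not given, and the values of *RNF216* are uncertain to that extent.

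*RNF217*, on chromosome 6 from 125283691 to 125413780 (plus strand), was the lowest of the 9 expressed members. The si-Control library held 1.79 RPKM of it from 787 reads, against 1.39 RPKM from 671 reads after si-RBCK1 #1 and 1.75 RPKM from 757 reads after si-RBCK1 #2. Only the si-RBCK1 #1 library stood apart, at 77.8% of control. The log2 ratios were -0.22 and -0.02, and on reads the first was -0.36 (interval -0.51 to -0.21), so the scale of log2(RPKM + 1) understates it.

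**Figure D3:**
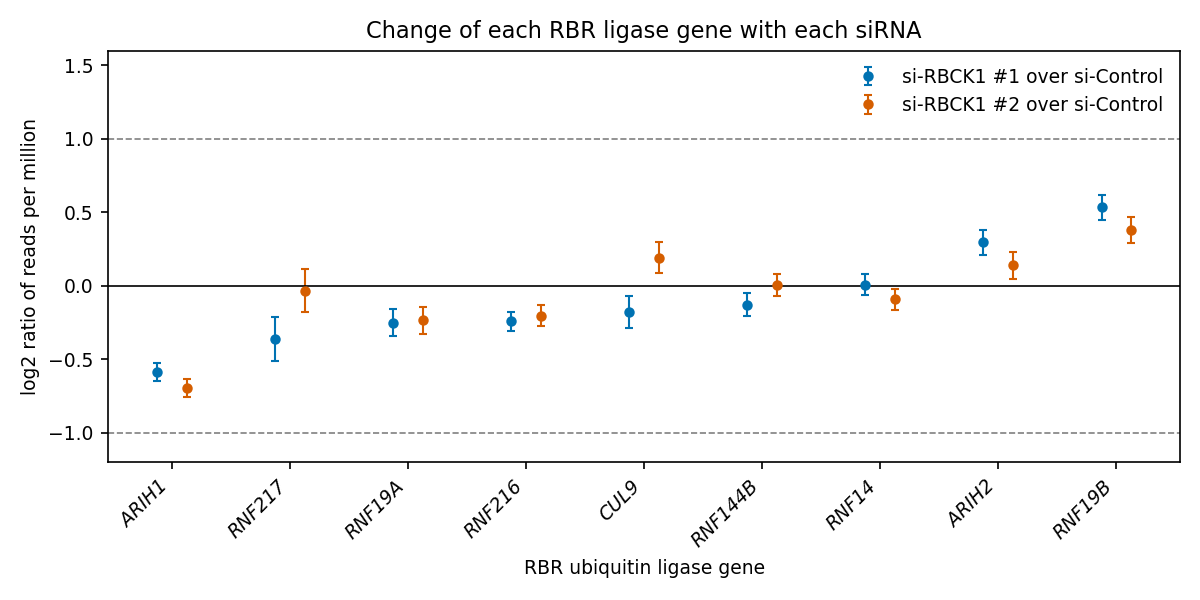
The log2 ratio of reads scaled to library size (vertical axis) of each si-RBCK1 library over si-Control for the 9 expressed RBR ligase genes (horizontal axis, ordered by si-RBCK1 #1), with exact 95% intervals as bars. Dashed lines mark a 2-fold change, which no gene reached. *ARIH1* lay lowest at -0.59 and -0.70 and *RNF19B* highest at 0.53 and 0.38.

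In the control library the order of levels was *ARIH1*, *RNF14*, *RNF19B*, *RNF216*, *RNF144B*, *ARIH2*, *RNF19A*, *CUL9*, *RNF217* and *RNF144A*. Of the 8 pairs of neighbours with reads in both genes, 2 did not differ beyond counting error, *RNF14* and *RNF19B* (ratio 1.04, interval 0.982 to 1.10) and *ARIH2* and *RNF19A* (ratio 1.06, interval 0.992 to 1.124). With both si-RBCK1 libraries the first 3 ranks were held by *RNF19B*, *RNF14* and *ARIH1* in that order. Neighbours that did not differ beyond counting error were *ARIH2* and *RNF216* with si-RBCK1 #1 (ratio 1.05, interval 0.994 to 1.10) and *RNF216* and *RNF144B* with si-RBCK1 #2 (ratio 1.01, interval 0.963 to 1.07). The last 4 ranks, from *RNF19A* down, were the same in all 3 libraries. Among the 10775 protein-coding genes tested, 78.1% had a lower level than *ARIH1* with si-Control, and 66.9% and 64.6% did so in the depleted libraries.

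The members were then counted beside all genes tested, at the looser limit of 1.5-fold and by the interval on reads. On the log2(RPKM + 1) scale the counts at 1.5-fold were 0 with si-RBCK1 #1 (23.7% of all genes), 1 with si-RBCK1 #2, *ARIH1* (20.6%), and 0 with both in the same direction (13.7%). Without the added 1 RPKM *ARIH1* lay just past this limit with si-RBCK1 #1 as well, 1.501-fold and 1.62-fold lower. The interval on reads lay above 0 in 2 members with si-RBCK1 #1 (40.2% of all genes) and in 3 with si-RBCK1 #2 (41.0%). It lay below 0 in 6 members with si-RBCK1 #1 (37.5%) and in 4 with si-RBCK1 #2 (34.1%). With both siRNAs it lay above 0 for *ARIH2* and *RNF19B*, 2 of 9 members (31.9% of all genes), and below 0 for *ARIH1*, *RNF19A* and *RNF216*, 3 of 9 members (27.6%). Counts among 9 members are too small to be set apart from the shares of all genes, and no difference from those shares was tested. Both comparisons share the si-Control library, so a deviation of that library alone would move both ratios of a gene together. The median log2 ratio of the 9 members was -0.14 with si-RBCK1 #1 and -0.02 with si-RBCK1 #2, and that of all genes was 0.02 and 0.03.

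**Figure D4:**
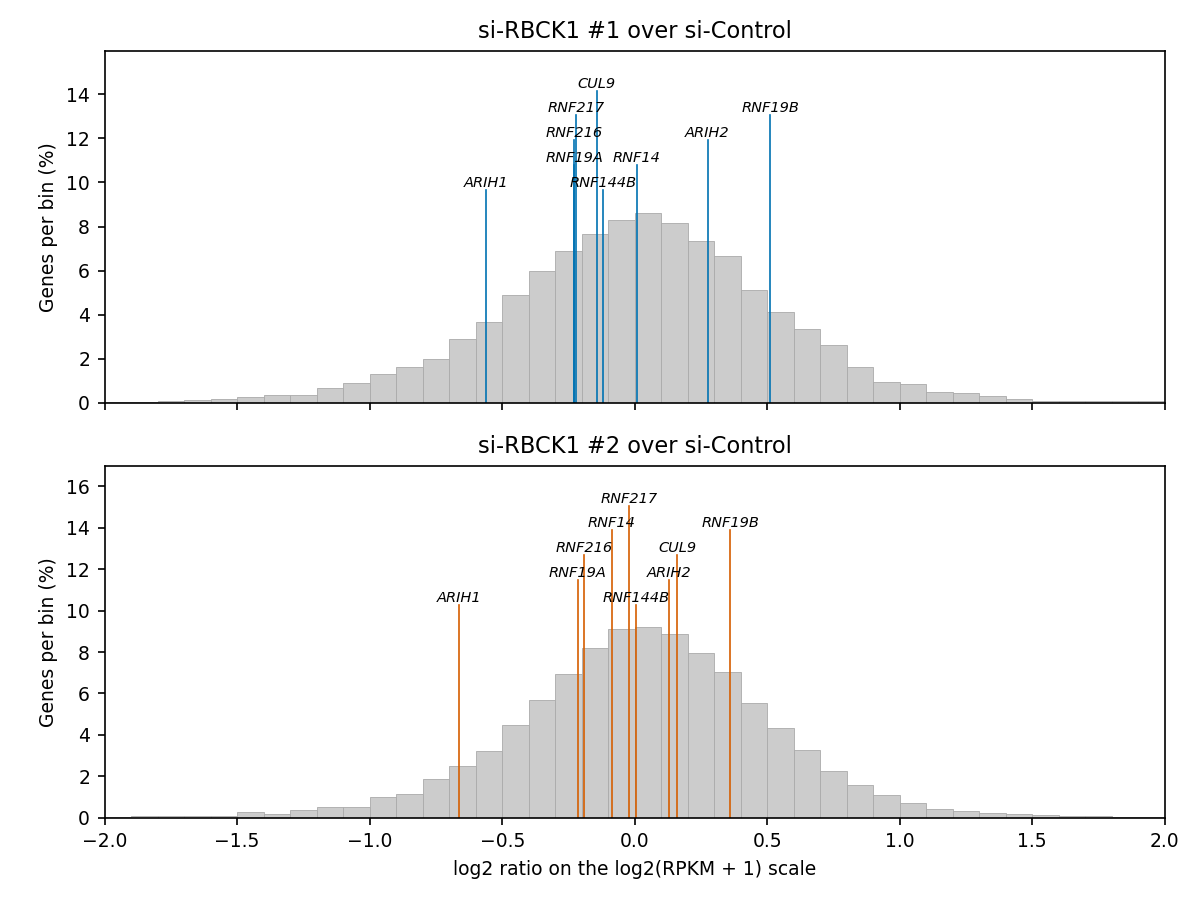
Distribution of log2 ratios on the log2(RPKM + 1) scale (horizontal axis) over the 12403 genes tested, as percent of genes in each bin of 0.1 (vertical axis), for si-RBCK1 #1 (upper panel) and si-RBCK1 #2 (lower panel) over si-Control, with labelled lines for the 9 expressed RBR ligase genes. The members lie within the body of the distribution, with *ARIH1* at -0.56 and -0.66 nearest to its lower edge.

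Other RBR ligases were set beside the members. *RNF31*, the catalytic subunit of the linear ubiquitin complex, gave 5.61 RPKM (757 reads) in the control library, 6.80 RPKM (1004 reads) after si-RBCK1 #1 and 7.11 RPKM (944 reads) after si-RBCK1 #2, log2 ratios of 0.24 and 0.29. *ANKIB1*, an ariadne-type ligase with ankyrin repeats, gave 15.7, 12.5 and 13.4 RPKM from 3522, 3074 and 2970 reads in the same order of libraries, log2 ratios of -0.31 and -0.21. *RNF31* was thus higher and *ANKIB1* lower in both depleted libraries, each by less than 1.5-fold. *PARK2*, which encodes parkin, did not average 1 RPKM.

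The genes that work with these ligases were examined by lists. Of the 9 cullin scaffolds and RING partners, which hold the substrates on which ARIH1 and ARIH2 act, 2 were higher (*CUL1* and *RBX1*) and 4 lower (*CUL2*, *CUL3*, *CUL4B* and *CUL5*) with both siRNAs by the interval on reads, beside 31.9% and 27.6% of all genes. *RBX1*, the RING subunit that recruits E2 enzymes to most cullins, was the only gene of this list past 1.5-fold with both siRNAs (1 of 9, beside 13.7% of all genes). Its transcripts stood at 11.96 RPKM in the control library (400 reads) and at 22.7 RPKM (833 reads) and 23.7 RPKM (779 reads) after the first and the second si-RBCK1, log2 ratios of 0.87 and 0.93. *CUL2*, the most abundant of the list with si-Control, was at 42.0, 37.0 and 36.5 RPKM, and the medians of the list were 0.02 and -0.15.

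Of the 10 genes of neddylation, which attaches NEDD8 to cullins, 0 were higher and 4 were lower with both siRNAs by the interval on reads (31.9% and 27.6% of all genes). *UBE2M*, the E2 enzyme for most cullins and the most abundant of the list, gave 62.3 RPKM in the control library, 76.6 RPKM after si-RBCK1 #1 and 64.9 RPKM after si-RBCK1 #2. The E2 enzyme for cullin 5, *UBE2F*, gave 12.4, 7.55 and 8.78 RPKM, log2 ratios of -0.65 and -0.46. No gene of the list passed 1.5-fold with both siRNAs (13.7% of all genes did so in 1 direction). The list had medians of -0.04 and -0.16.

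Among 8 ubiquitin E2 enzymes that RBR ligases can use, 1 was higher (*UBE2N*) and 5 were lower (*UBE2D1*, *UBE2D2*, *UBE2D3*, *UBE2K* and *UBE2L6*) with both siRNAs by the interval on reads, where all genes gave shares of 31.9% and 27.6%. *UBE2D2*, the most abundant, gave 80.0 RPKM (8474 reads) in the control library, 55.3 RPKM (6417 reads) after si-RBCK1 #1 and 43.8 RPKM (4561 reads) after si-RBCK1 #2, log2 ratios of -0.52 and -0.86. *UBE2L3*, the E2 enzyme known to work with ARIH1 and parkin, gave 17.3, 18.7 and 17.3 RPKM, log2 ratios of 0.11 and 0.0042. *UBE2L3* was thus at 109% and 100.3% of control, while *UBE2D2* had the lowest log2 ratio of the 8 genes with both siRNAs. The medians of the list were -0.19 and -0.39.

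HECT ligases, the other family that carries ubiquitin on its own cysteine, were examined for comparison. Of 27 HECT genes 24 averaged 1 RPKM or more (not *HECW1*, *HECW2* and *HERC3*), 4 were higher (31.9% of all genes) and 8 lower (27.6%) with both siRNAs by the interval on reads, and 0 differed 2-fold with both (2.87%). On the log2(RPKM + 1) scale *AREL1* was the gene of the list past 1.5-fold with both siRNAs (1 of 24, beside 13.7% of all genes). *HERC2* (4.90, 7.94 and 7.59 RPKM) passed this limit on RPKM values without the added 1 RPKM, at 1.62-fold and 1.55-fold. The si-Control library held 6.19 RPKM of *AREL1* from 1244 reads, against 12.2 RPKM from 2678 reads after si-RBCK1 #1 and 10.03 RPKM from 1985 reads after si-RBCK1 #2. *HUWE1*, the most abundant HECT ligase gene, was at 49.5, 47.5 and 50.01 RPKM, and the medians of the list were -0.10 and -0.0065.

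**Figure D5:**
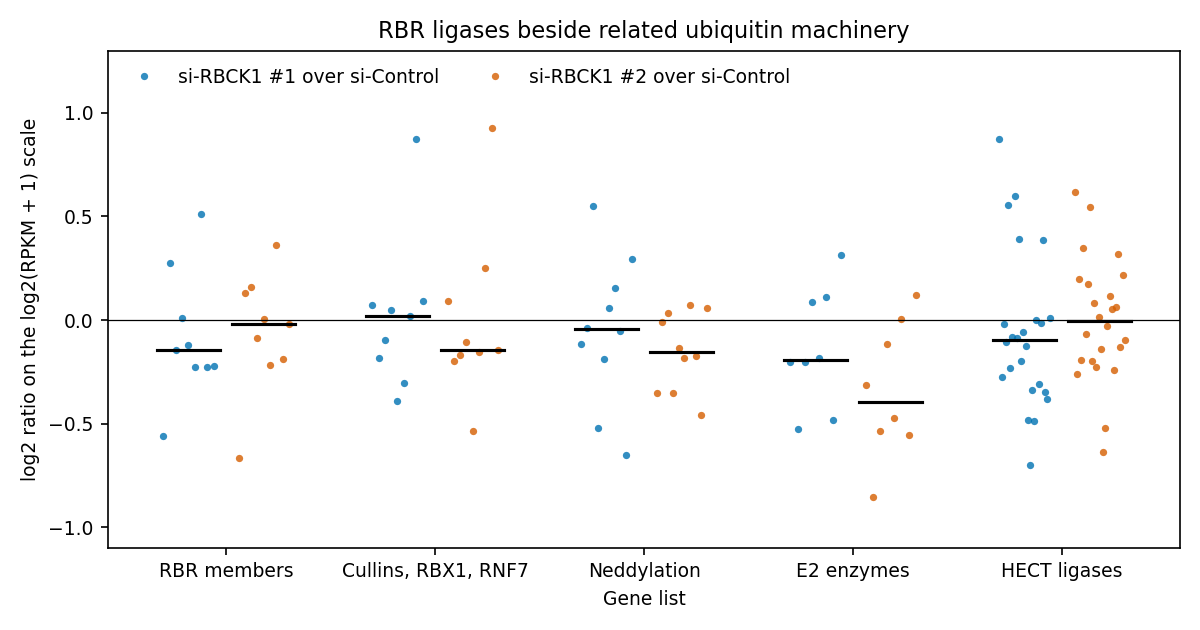
Log2 ratios on the log2(RPKM + 1) scale (vertical axis) of each si-RBCK1 library over si-Control for the expressed genes of 5 lists (horizontal axis), 1 point per gene and a black line at the median. The RBR members had medians of -0.14 and -0.02 and the E2 enzymes -0.19 and -0.39, and no gene of these lists lay beyond 1 in size.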

How the data were processed

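RNA-seq of Caki-1 cells gave 3 libraries, 1 per condition. The authors deposited a single table with 1 RPKM value per gene and library, and the submitters' processing notes name FastQC, Trimmomatic, TopHat2, HTSeq and the genome build hg19. Ribosomal RNA was removed and a directional kit was used, per the labels, but whether counting used strand is not given in the sources used here, nor is the gene annotation. Of the members, 7 overlap 11 other entries of the table, 8 of them on the opposite strand, and none of these reached 0.64 RPKM. Columns of the authors' own comparison (group values, a fold change on the log2 scale, p- and q-values) were not used.

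Each si-RBCK1 library was compared with si-Control as a log2 ratio of RPKM values with a pseudocount of 1 RPKM, over the 12403 genes that averaged 1 RPKM or more. With 1 library per condition no test was made. The reads behind the RPKM values were recovered: the library totals from 1-read values of genes of up to 200 nt, then for each gene the shortest length of up to 50000 nt that gave whole reads in all libraries (within 0.002 reads or less). This succeeded for 12388 genes (99.9%). Ratio intervals are exact Clopper-Pearson intervals (95%), and a count of 0 was taken to allow 3 reads. The limit of 2-fold follows the study's methods, which joined it to a p-value limit that was not used here. The members and lists were chosen with earlier results of these data known, and lists were written from general knowledge. Named genes are all members, *RBCK1* and other RBR ligases, and of each list the genes past 1.5-fold with both siRNAs, the most abundant gene with si-Control and those under 1 RPKM. *UBE2F*, *UBE2L3*, *HERC2* and genes named by the direction of their interval were chosen after their values were seen. A marker gene and a list of 3 genes are not reported here. The steps were tested on simulated data. Alternatives were pseudocounts of 0.1 and 5 RPKM, libraries scaled to equal medians or totals, dropping the filter or raising it to 5 RPKM, and a limit of 1.5-fold. Calculations ran in Python (3.11.15) with pandas (2.3.3), numpy (2.4.6) and scipy (1.17.1), and plots in matplotlib (3.10.9).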

Additional observations from a re-analysis of the deposited data

Results flagged for a closer look

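In 3 members the siRNAs gave log2 ratios of opposite sign, and the difference between the siRNAs was not tested, since there was 1 library for each. *CUL9* had -0.14 with si-RBCK1 #1 and 0.16 with si-RBCK1 #2, and both intervals on reads lay away from 0 (-0.29 to -0.07 and 0.09 to 0.30). *RNF144B* had -0.12 and 0.0060, and *RNF14* had 0.0081 and -0.086, and in each of these genes the interval of the value nearer to 0 held 0. On reads, si-RBCK1 #2 over #1 gave a log2 ratio of 0.13 for *RNF144B* (interval 0.06 to 0.21). For *RNF14* it was -0.10 (interval -0.17 to -0.03), and these intervals cover counting error only.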

How the results depend on the processing

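No paired analysis was possible because there was a single library per condition. The count of members changed at least 2-fold was 0 with each siRNA and with both under pseudocounts of 0.1 and 5 RPKM, both scalings, no filter and a filter at 5 RPKM. With a limit of 1.5-fold it was 1 with si-RBCK1 #2, as a looser limit allows. Over these settings the medians of the members ranged from -0.19 to -0.09 with si-RBCK1 #1 and from -0.09 to -0.0087 with si-RBCK1 #2. Of 80 single ratios recomputed, 78 moved by no more than the half-width of their interval on reads or, for *RNF144A*, had no such interval. The 2 that moved further were those of *ARIH1* with a pseudocount of 5 RPKM, -0.48 and -0.56. The sign changed in 4, all near 0: *RNF14* with si-RBCK1 #1 was -0.00082 with equal medians and -0.05 with equal totals, and *RNF144B* with si-RBCK1 #2 was -0.04 and -0.02. The directions given for *ARIH1*, *ARIH2*, *RNF19A*, *RNF19B* and *RNF216* held under both scalings. Depth limits *RNF144A*, with 1 read in all, and the lack of replicates limits every difference.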

Other observations

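CUL9 is known to associate with the 3M proteins through its relative CUL7, and the genes of this complex were also examined. *CUL7* gave 8.68 RPKM in the control library, 8.81 RPKM after si-RBCK1 #1 and 10.5 RPKM after si-RBCK1 #2, and *OBSL1* gave 1.94, 1.45 and 2.37 RPKM. The F-box partner *FBXW8* gave 5.42, 3.44 and 5.90 RPKM. By the interval on reads, the si-RBCK1 #2 library was above the control library for *CUL7* and *OBSL1* (41.0% of all genes) and not for *FBXW8* (log2 ratio 0.12, interval -0.0056 to 0.25). The si-RBCK1 #1 library was below it for *OBSL1* and *FBXW8* (37.5% of all genes). *CCDC8* was under 0.1 RPKM in every library.

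*PARK2*, which encodes the RBR ligase parkin, lay under the limit of 1 RPKM, and it was lower in both depleted libraries. It had 51 reads (0.339 RPKM) with si-Control, 5 reads (0.0304 RPKM) with si-RBCK1 #1 and 2 reads (0.0135 RPKM) with si-RBCK1 #2. The log2 ratios on reads were -3.48 (interval -5.16 to -2.17) and -4.65 (interval -7.73 to -2.72). The value rests on a low count in a single control library.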
